A study of Mus musculus with 4 samples.

Results

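The histone H2A cluster genes examined here were Hist1h2ab, Hist1h2ad, Hist1h2af, Hist1h2ag, Hist1h2ah, Hist1h2ai, Hist1h2ak, Hist1h2an, Hist1h2ao and Hist2h2ac. They were taken by gene symbol from a whole-genome table of 45281 array probes, which held 15 probes for these 10 genes. The 10 genes were chosen from earlier values of the same arrays, as a family that mostly lay higher in Rb-deleted cells, so their ratios in those cells are given as a description. All 10 were detected on at least 1 array and were therefore among the 12616 genes analysed. According to the array's annotation 9 of the genes lie on chromosome 13 and 1, Hist2h2ac, lies on chromosome 3.

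RNA was compared across 4 cultures of murine embryonic fibroblasts (MEFs) of strain FVB;129 that carried a floxed Rb gene, with 1 array per condition. Parental MEFs received a solution without TAT-Cre and media alone, so they kept endogenous Rb. Rb-deleted MEFs received TAT-Cre, a cell-permeable recombinase that removes the floxed Rb, and no retrovirus. WT Rb-HA MEFs received TAT-Cre and a retrovirus for HA-tagged wild-type Rb. ΔCdk Rb-HA MEFs received TAT-Cre and a retrovirus for a tagged mutant Rb that cyclin-dependent kinases cannot phosphorylate. Each treatment was given 2 times for 1 h, 3 h apart. Per the study's methods, all 4 cultures were released from contact arrest and treated with doxorubicin, a DNA-damaging topoisomerase II inhibitor, before RNA was taken, so none of them represents untreated cells. Expression from the retrovirus is driven independently of the endogenous Rb promoter, and no array holds an empty-vector culture. With 1 array per condition no p-value was computed, and the errors below are bead standard errors, which measure the spread of beads within an array and leave out variation between cultures and arrays.

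Histone H2A is a core histone that pairs with H2B in the nucleosome. Genes for the replication-dependent core histones sit in clusters, and a gene for H2A often lies head-to-head with a gene for H2B, sharing the sequence between their starts. Transcription of these genes is high while DNA is replicated, and their mRNAs normally end in a stem loop in place of a poly(A) tail. How far the labelling of the RNA captured mRNAs without a poly(A) tail was not tested, which limits every cluster histone value below. The coding sequences of H2A genes in these clusters are close to identical, so a short probe within them can bind the mRNA of several genes.

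Probe sequences are shown first, because the probes of different genes overlap in sequence. Each probe is a designed 50-base oligonucleotide, and its position is that of its first base in the transcript model of the array. The first set lies at the start of the coding sequence, with the longest run of bases identical to the Hist1h2ah probe at position 1 in capitals. Hist2h2aa2, an H2A gene outside the 10, is included because its probe is the closest relative of the Hist2h2ac probe at position 1.

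Hist1h2ah position 1: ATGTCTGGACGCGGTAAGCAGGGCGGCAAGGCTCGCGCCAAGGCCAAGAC
Hist1h2ah position 9: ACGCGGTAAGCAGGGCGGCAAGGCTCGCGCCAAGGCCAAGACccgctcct
Hist1h2ad position 3: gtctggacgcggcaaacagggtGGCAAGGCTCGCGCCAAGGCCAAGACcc
Hist1h2ak position 1: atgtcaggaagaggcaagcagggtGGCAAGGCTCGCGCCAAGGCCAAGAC
Hist2h2ac position 1: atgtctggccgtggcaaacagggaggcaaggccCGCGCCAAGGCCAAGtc
Hist2h2aa2 position 2: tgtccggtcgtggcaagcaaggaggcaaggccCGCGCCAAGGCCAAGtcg

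At the start of the coding sequence, the probes of Hist1h2ad and Hist1h2ak each held a run of 26 bases in common with the Hist1h2ah probe. Those of Hist2h2ac and Hist2h2aa2 held only 15. The second set lies at the end of the coding sequence, with the longest run identical to the Hist1h2ao probe at position 342 in capitals. For Hist1h2ab only the first 30 bases are printed.

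Hist1h2ao position 342: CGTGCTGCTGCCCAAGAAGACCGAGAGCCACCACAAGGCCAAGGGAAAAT
Hist1h2ad position 343: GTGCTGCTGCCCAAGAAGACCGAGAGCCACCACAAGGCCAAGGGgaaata
Hist1h2ai position 343: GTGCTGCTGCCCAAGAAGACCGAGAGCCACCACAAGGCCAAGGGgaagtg
Hist1h2ai position 326: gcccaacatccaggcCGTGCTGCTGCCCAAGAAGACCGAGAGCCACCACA
Hist1h2an position 341: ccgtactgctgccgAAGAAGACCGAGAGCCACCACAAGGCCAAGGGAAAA
Hist1h2af position 342: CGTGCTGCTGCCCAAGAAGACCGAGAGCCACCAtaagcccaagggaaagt
Hist2h2ac position 331: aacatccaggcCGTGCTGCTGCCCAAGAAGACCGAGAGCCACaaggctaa
Hist1h2ab position 423: GGCCAAGGGgaagtaatctggcgattgtct

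In this set the probes of Hist1h2ad and Hist1h2ai at position 343 shared 44 bases with the Hist1h2ao probe. The Hist2h2ac probe at position 331 shared 31, although its gene lies on another chromosome. The Hist1h2ab probe differed from the rest: 16 of its 50 bases run to the end of the stop codon and the other 34 lie beyond it. The remaining probes lie in the middle of the coding sequence and shared fewer than 12 bases in a row with any probe of another of the 10 genes, so they carry no capitals. The array holds no probe of another of the 10 genes at either place. Whether these probes bind the mRNA of other genes is therefore not shown.

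Hist1h2ag position 125: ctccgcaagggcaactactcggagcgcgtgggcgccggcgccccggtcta
Hist1h2af position 246: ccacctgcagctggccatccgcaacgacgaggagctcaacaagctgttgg

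Depth and the check of the deleted gene were as follows. Between 15950 and 16740 probes were detected per array at a detection p-value below 0.01, with a median of 44 beads per probe. The Rb1 probe at position 4421 read 543 in parental MEFs, 160 in Rb-deleted, 181 in WT Rb-HA and 170 in ΔCdk Rb-HA MEFs. Endogenous Rb1 was therefore low on the 3 arrays labelled as Cre-treated, and whether this probe can read the retroviral transcript is not known. All 13 fibroblast markers were detected on all 4 arrays, with summed intensities between 75887 and 85870.3. Of the leukocyte markers 9 of 11 were detected on all 4 arrays, while Ptprc and Fcer1g were detected on none. The summed intensity of those 9 was 10142.5 in parental, 5328 in Rb-deleted, 4829.7 in WT Rb-HA and 6071 in ΔCdk Rb-HA MEFs. Each of the 9 was lower than parental on all 3 Cre-treated arrays. This difference runs beside every ratio to parental given here, and its part in them was not tested. Epithelial markers summed to between 300.2 and 364, with Krt5 undetected, and of the endothelial markers only Emcn was detected on any array.

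The H2A probes fell into a large group that was higher in Rb-deleted MEFs and a pair that was not. Among the 10 genes, 9 were past 1.6-fold above parental in Rb-deleted MEFs, where 2.14% of all 12616 genes were, but the choice of genes used this contrast. Their median log2 ratio was 0.95, with 0.02 for all genes. Hist1h2ab was the gene that departed, and Hist2h2ac passed the threshold by its brighter probe only. Hist1h2ag fell below the threshold without background correction and with an offset of 50, where the count was 8 of 10. Counted by probe, 13 of 15 were past 1.6-fold, and the others were the Hist1h2ab probe and the second Hist2h2ac probe. Probes were read on 29 to 61 beads each, and 14 of 15 were detected on all 4 arrays. In bulk RNA a change in the number of cells that express a histone gene and a change in its RNA per cell cannot be told apart.

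**Figure D1:**
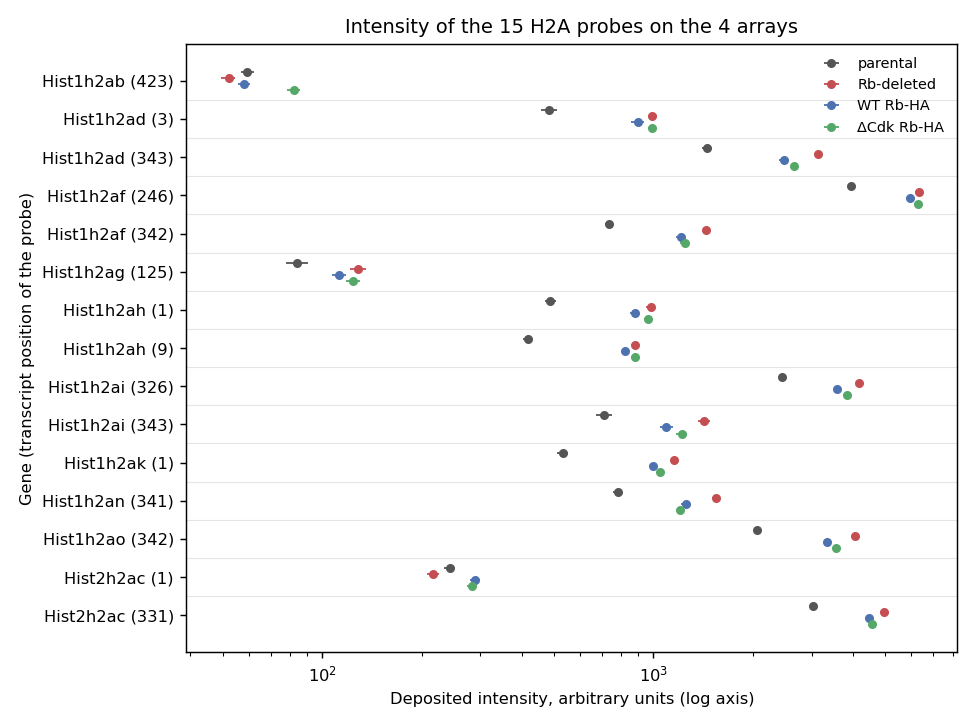
Deposited intensity (log axis, arbitrary units) of the 15 probes of the 10 H2A genes on 1 array for each of the 4 conditions, with the bead standard error as bars. The parental array reads lowest for 13 probes, while the Hist1h2ab probe (position 423) and the Hist2h2ac probe at position 1 read lowest on the Rb-deleted array.

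Among the genes read at the start of the coding sequence, Hist1h2ah had a pair of probes that overlap by 42 bases. Position 1 read 488 in parental, 983 in Rb-deleted, 876 in WT Rb-HA and 962 in ΔCdk Rb-HA MEFs. Log2 ratios to parental are given with the bead standard error in brackets, first for Rb-deleted, then for WT Rb-HA and last for ΔCdk Rb-HA MEFs, and here were 1.10 (0.07), 0.93 (0.08) and 1.10 (0.07). Position 9 read 419, 879, 821 and 877 on the same arrays. Both probes of Hist1h2ah thus placed parental MEFs apart from the other 3 arrays, and the Rb-deleted and ΔCdk Rb-HA arrays lay within 2 bead standard errors of each other.

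Hist1h2ad was read at both ends of its coding sequence. At position 3 its probe read 485 in parental, 992 in Rb-deleted, 895 in WT Rb-HA and 989.8 in ΔCdk Rb-HA MEFs, with log2 ratios of 1.12 (0.10), 0.97 (0.11) and 1.16 (0.10). At position 343 it read 1448, 3144, 2475 and 2652, with log2 ratios of 1.20 (0.05), 0.84 (0.06) and 0.97 (0.05). The Rb-deleted array was the highest at position 343, with every neighbour in the order of the 4 arrays more than 2 bead standard errors apart. At position 3 the Rb-deleted array could not be separated in this way from either the ΔCdk Rb-HA or the WT Rb-HA array.

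Hist1h2ak had the highest ratio of the 10 genes in Rb-deleted MEFs. Its probe at position 1 read 532 in parental, 1155 in Rb-deleted, 997 in WT Rb-HA and 1046 in ΔCdk Rb-HA MEFs. The log2 ratios were 1.21 (0.06), 1.00 (0.07) and 1.10 (0.06), so the gene was past 1.6-fold on all 3 arrays. The 4 arrays were ordered from Rb-deleted through ΔCdk Rb-HA and WT Rb-HA to parental, each step larger than 2 bead standard errors.

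The same order was found for Hist1h2ao, which is read at the end of the coding sequence. Its probe at position 342 read 2047 in parental, 4046 in Rb-deleted, 3343 in WT Rb-HA and 3559.8 in ΔCdk Rb-HA MEFs. The log2 ratios were 1.07 (0.04), 0.77 (0.04) and 0.86 (0.04). The gene was past 1.6-fold on all 3 arrays.

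Hist1h2ai had a pair of probes that share 34 bases. Position 326 read 2449 in parental, 4160.3 in Rb-deleted, 3579.8 in WT Rb-HA and 3832 in ΔCdk Rb-HA MEFs, with log2 ratios of 0.84 (0.04), 0.60 (0.04) and 0.70 (0.05). Position 343 read 709.8, 1421, 1093 and 1216, with log2 ratios of 1.09 (0.10), 0.71 (0.10) and 0.90 (0.09). Both probes ordered the arrays in the same way as Hist1h2ao. The ratio at position 326 was lower than that at position 343 by 0.24 (0.11) in Rb-deleted MEFs, a little over 2 bead standard errors.

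For Hist1h2an the retroviral arrays could not be ordered. Its probe at position 341 read 779 in parental, 1545 in Rb-deleted, 1254 in WT Rb-HA and 1204 in ΔCdk Rb-HA MEFs. The log2 ratios were 1.07 (0.06), 0.76 (0.06) and 0.75 (0.05). Its readings in ΔCdk Rb-HA and in WT Rb-HA MEFs lay within 2 bead standard errors of each other, and both lay below the Rb-deleted reading.

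Hist1h2af was read at the end and in the middle of its coding sequence. The probe at position 342 read 733 in parental, 1443 in Rb-deleted, 1207 in WT Rb-HA and 1241 in ΔCdk Rb-HA MEFs, with log2 ratios of 1.06 (0.06), 0.80 (0.06) and 0.88 (0.06). Position 246 read 3951, 6327, 5951 and 6278, with log2 ratios of 0.75 (0.06), 0.64 (0.05) and 0.73 (0.06). Both were past 1.6-fold in Rb-deleted MEFs, but the ratio at position 342 was higher by 0.31 (0.08). At position 246 the 3 Cre-treated arrays were close together, and no step between neighbours among them passed 2 bead standard errors. This probe shared a run of 46 bases with a probe of EG667728, a predicted gene outside the 10, whose log2 ratios of 0.62, 0.61 and 0.74 lay near those of Hist1h2af.

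Hist1h2ag was the dimmest of the genes that were higher in Rb-deleted MEFs. Its probe at position 125 read 84.0 in parental, 129 in Rb-deleted, 113 in WT Rb-HA and 124 in ΔCdk Rb-HA MEFs. The log2 ratios were 0.82 (0.18), 0.56 (0.18) and 0.76 (0.18). Its 3 Cre-treated arrays were not separated by 2 bead standard errors, and all lay above parental.

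Hist2h2ac, the gene of the cluster on chromosome 3, gave opposite pictures with its pair of probes. At position 331 it read 3038 in parental, 4958 in Rb-deleted, 4469.85 in WT Rb-HA and 4571 in ΔCdk Rb-HA MEFs, with log2 ratios of 0.78 (0.05), 0.59 (0.03) and 0.63 (0.04). At position 1 it read 242, 216, 289 and 282, with log2 ratios of -0.15 (0.09), 0.33 (0.08) and 0.31 (0.08). The probe at position 1 was lowest in Rb-deleted MEFs and within 2 bead standard errors of parental there. In Rb-deleted MEFs the ratios of the probes differed by 0.94 (0.10). The brighter probe, at position 331, stood for the gene, and the dimmer one turned the sign of the gene's ratio.

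Hist1h2ab was the only gene of the 10 whose reading in Rb-deleted MEFs lay below parental, by less than 2 bead standard errors. Its probe at position 423 read 59.5 in parental, 52.2 in Rb-deleted, 58.0 in WT Rb-HA and 82.2 in ΔCdk Rb-HA MEFs. It was detected in parental and ΔCdk Rb-HA MEFs, with detection p-values of 0.00534 and 0, and not in Rb-deleted and WT Rb-HA MEFs, where they were 0.0235 and 0.0118. Between the 2 detected arrays, the log2 ratio of ΔCdk Rb-HA to parental MEFs was 0.72 (0.14), but 0.47 without background correction and 0.41 with a larger offset. Against the undetected readings the ΔCdk Rb-HA reading was higher by 1.01 (0.15) for Rb-deleted and by 0.83 (0.14) for WT Rb-HA MEFs on the log2 scale. Without background correction these differences were 0.64 and 0.53. Hist1h2ab thus read highest on the ΔCdk Rb-HA array, by an amount that depended on the background correction, while the parental, WT Rb-HA and Rb-deleted readings could not be ordered beyond 2 bead standard errors between neighbours.

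**Figure D2:**
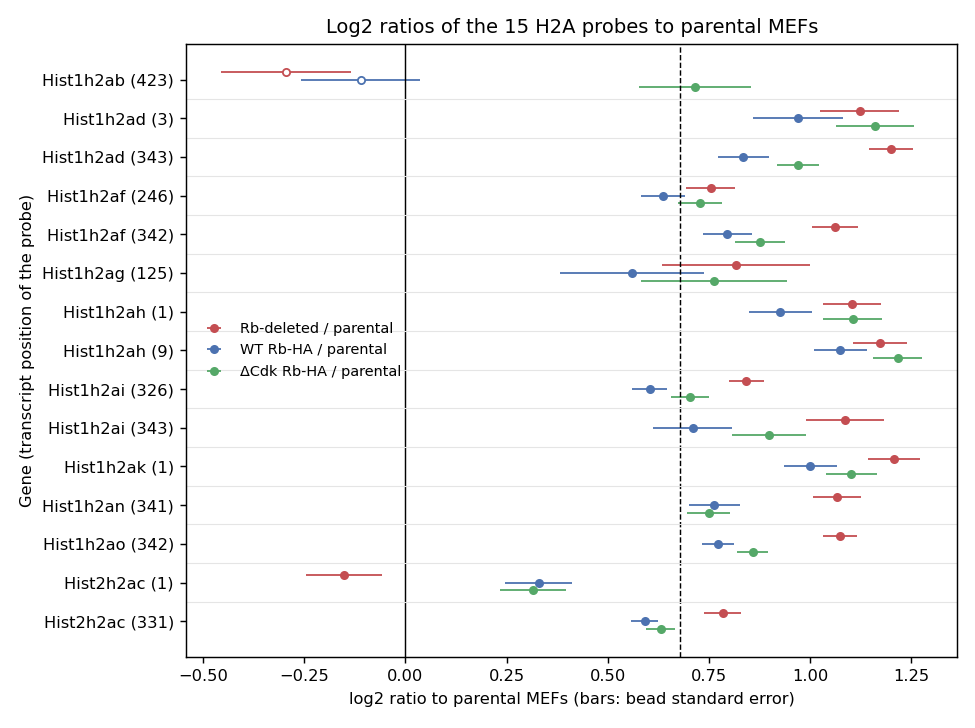
Log2 ratio to parental MEFs of each of the 15 probes on the 3 Cre-treated arrays (colours), with the bead standard error of the ratio as bars open symbols where a reading was not detected, and the 1.6-fold line dashed (log2 0.68). In Rb-deleted MEFs 13 probes lie right of the dashed line, while Hist1h2ab (423) at -0.29 and Hist2h2ac (1) at -0.15 lie left of 0.

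Cells with Rb added back were compared next, where all 3 ratios to parental share the parental array. In WT Rb-HA MEFs 5 of the 10 genes were past 1.6-fold above parental, against 0.888% of all genes, and the median log2 ratio was 0.70. In ΔCdk Rb-HA MEFs 9 of 10 were, against 2.58% of all genes, and the median was 0.76. The gene that missed the threshold there was Hist2h2ac, at 0.63. Hist1h2ab and Hist1h2ag passed it, but lay below it without background correction and with an offset of 50, where the count was 7 of 10. Without normalization between arrays the count was 6 of 10. For all genes the medians were 0.01 in WT Rb-HA and -0.01 in ΔCdk Rb-HA MEFs.

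Contrasts with the Rb-deleted array, which leave out the parental array, were smaller. The genes were chosen as higher on the Rb-deleted array, so lower readings on the other arrays are favoured by that choice. Between the WT Rb-HA and the Rb-deleted array, 0 of the 10 genes were lower in WT Rb-HA MEFs past 1.6-fold, against 0.484% of all genes, and 0 were past it in the other direction, against 0.539%. The median log2 ratio was -0.22, with -0.02 for all genes, and Hist1h2ad was the lowest at -0.36 (0.05). Lower by more than 2 bead standard errors were 8 of 10 genes, a count for which no share of all genes is given. From Rb-deleted to ΔCdk Rb-HA MEFs 0 genes were lower past 1.6-fold, against 1.95% of all genes, while Hist1h2ab was the 1 gene higher, against 2.31%, relative to a reading that was not detected. The median there was -0.12, and Hist1h2an was lowest at -0.32 (0.05). The 9 genes other than Hist1h2ab lay above parental in both Rb-HA cultures.

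A contrast of ΔCdk Rb-HA with WT Rb-HA MEFs used neither array of the contrast by which the genes were chosen. The median log2 ratio of the 10 genes was 0.10, and -0.01 for all genes. Hist1h2ab alone was past 1.6-fold, against 0.84% of all genes, relative to a WT Rb-HA reading that was not detected. Without background correction and with an offset of 50 it was at 0.53 and 0.46, and 0 of the 10 genes were past 1.6-fold, as among genes detected on all 4 arrays. By gene 6 of 10 were higher in ΔCdk Rb-HA MEFs by more than 2 bead standard errors and 0 were lower. These were Hist1h2ab, Hist1h2ad, Hist1h2ah, Hist1h2ai, Hist1h2ak and Hist1h2ao. All of them but Hist1h2ab have probes that share sequence with each other or with other genes of the 10, so they are not separate measurements. The share of all genes past 2 bead standard errors is not given. Among the genes other than Hist1h2ab the largest difference was 0.20 (0.13), for Hist1h2ag.

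Overlap between probes was then set beside the ratios. Of the 100 pairs of probes that belong to different genes of the 10, 24 shared a run of at least 20 identical bases and 4 shared at least 40. At the 20-base level Hist1h2ad, Hist1h2af, Hist1h2ah, Hist1h2ai, Hist1h2ak, Hist1h2an, Hist1h2ao and Hist2h2ac were linked into 1 group of 8 genes, and Hist1h2ab and Hist1h2ag stood outside it. The 11 probes that shared at least 20 bases with another of the genes had log2 ratios between 0.78 and 1.21 in Rb-deleted MEFs, all past 1.6-fold. The other 4 probes lay between -0.29 and 0.82, with Hist1h2af at position 246 and Hist1h2ag past 1.6-fold. Values of the 11 probes are therefore not 11 separate measurements, and the genes that their signal comes from cannot be told apart. Runs were searched only between probes, so a short run does not show that a probe reads a single gene.

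**Figure D3:**
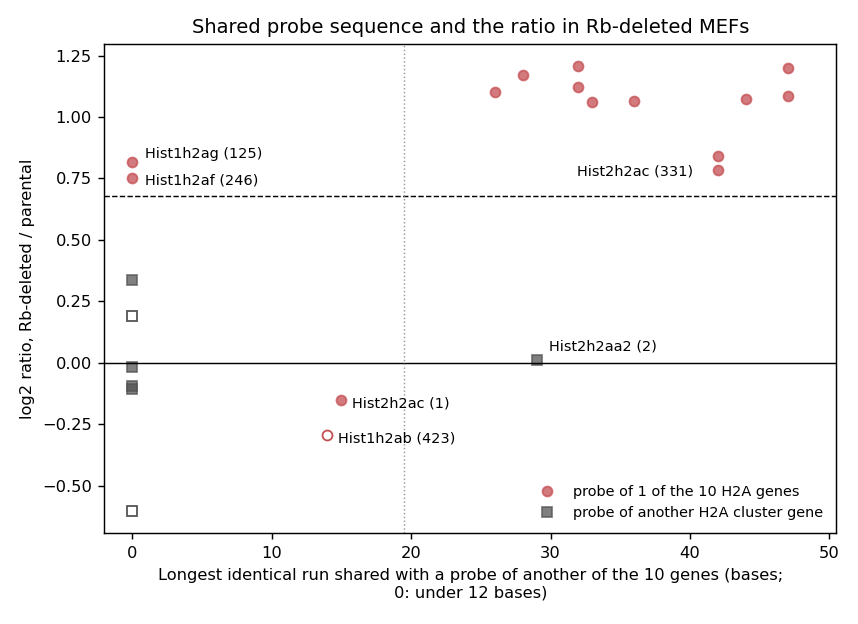
Longest identical run, in bases, that a detected H2A probe shares with a probe of another of the 10 genes (horizontal axis, 0 for under 12 bases) against its log2 ratio of Rb-deleted to parental MEFs, with circles for probes of the 10 genes squares for those of other H2A cluster genes open symbols where a reading was not detected, and a dotted line at the 20-base level. All 11 circles with runs of 26 to 47 bases lie above the dashed 1.6-fold line, but Hist2h2aa2 (position 2), with a run of 29 bases, lies at 0.01.

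Counted as 1 gene per linked group, the members gave lower medians in Rb-deleted MEFs. With groups linked by 40 bases the median log2 ratio over 7 groups was 0.82. With groups linked by 20 bases, a count chosen after the data had been seen, it was 0.75 over 3 groups. That 0.75 was the value of Hist1h2af at position 246, within the group of 8 genes. This probe itself shared no run of 20 bases with a probe of another of the 10 genes. The 11 probes that did share such a run had a median of 1.09. The 20-base median thus depended on the probe that stood for the group, and it does not represent the linked probes. In WT Rb-HA MEFs the 20-base groups gave a median of 0.56.

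Other H2A cluster genes did not show the same values. The array held 7 of them, of which 4 were detected on all 4 arrays, and the median log2 ratio of these in Rb-deleted MEFs was -0.0023, with 0 of 4 past 1.6-fold in either direction. Hist1h2ac was detected on the ΔCdk Rb-HA array only and is given no ratio. Hist2h2aa2, whose probe shares 29 bases with that of Hist2h2ac at position 1, read 1626 in parental, 1577 in Rb-deleted, 2077 in WT Rb-HA and 2179.5 in ΔCdk Rb-HA MEFs. Like the Hist2h2ac probe, it was near parental in Rb-deleted MEFs and higher in both Rb-HA cultures, by 0.42 (0.05) and 0.51 (0.05) on the log2 scale. Hist2h2aa1 at position 445, which shares fewer than 12 bases with any probe of the 10 genes, read 928, 883, 1108 and 1062. Hist1h2ae at position 628 read 86.0, 80.5, 97.9 and 109. Hist2h2ab, at 0.34 (0.12), was the highest of these genes in Rb-deleted MEFs, and Hist1h2ae, at -0.10 (0.12), was the lowest. In both Rb-HA cultures the 4 genes read above parental, with medians of 0.37 and 0.50.

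Replacement H2A histones, whose genes lie outside the clusters and whose mRNAs are mostly polyadenylated, were higher in Rb-deleted MEFs by smaller amounts. The 5 genes detected on all 4 arrays lay above parental there, with a median log2 ratio of 0.49, and 0 of 5 were past 1.6-fold. H2afy2 was detected on the Rb-deleted array only, at an intensity of 56.3, and its parental reading of 40.7 was not above background. H2afz, the gene of H2A.Z, read 1648 in parental, 2247 in Rb-deleted, 2158 in WT Rb-HA and 2714 in ΔCdk Rb-HA MEFs. H2afx, the gene of the H2A.X that is phosphorylated at DNA breaks, was the lowest in Rb-deleted MEFs at 0.24.

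The H2B genes had a median opposite in sign to that of the 10 H2A genes in Rb-deleted MEFs, the contrast by which those 10 were chosen. All 10 detected H2B cluster genes were below parental there, with a median log2 ratio of -0.77, and 7 were past 1.6-fold, against 2.98% of all genes. Of these 10, Hist1h2bg at -0.26 (0.16) and Hist2h2be at -0.23 (0.13) lay within 2 bead standard errors of parental. In WT Rb-HA MEFs 9 of 10 were above parental with a median of 0.37, and in ΔCdk Rb-HA MEFs the median was 0.74 with 6 past 1.6-fold. The 8 detected H4 cluster genes had medians of -0.49, 0.64 and 1.26 on the same 3 arrays. The 7 detected H3 genes had medians of -0.20, 0.25 and 0.67. Only Hist1h1c among the 6 linker histone genes on the array was detected, with log2 ratios of -0.59, 0.02 and 0.31. H2A, H2B, H3 and H4 cluster genes were thus all above parental by their medians on the ΔCdk Rb-HA array, whereas in Rb-deleted MEFs the median of the 10 H2A genes stood on the other side of 0 from those of the H2B, H3 and H4 genes. That split was not one of all H2A genes, since Hist1h2ab and 2 of the 4 H2A genes outside the 10 had log2 ratios below 0 there as well.

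**Figure D4:**
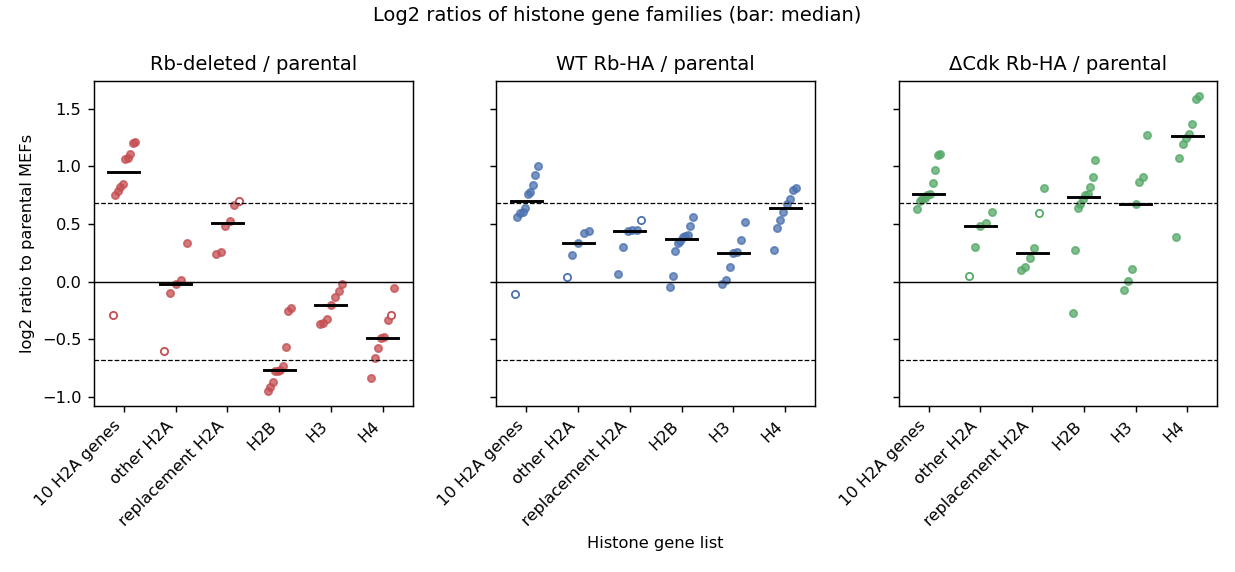
Log2 ratio to parental MEFs of each detected gene of 6 histone gene lists, with 1 panel for each Cre-treated array (points: genes, open where a reading of the pair was not detected, bars: medians of all points, dashed lines: 1.6-fold). In Rb-deleted MEFs the 10 H2A genes have a median of 0.95 and the H2B genes one of -0.77, while in ΔCdk Rb-HA MEFs the medians are 0.76 and 0.74.

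Probes of neighbouring H2A and H2B genes showed the same split within a pair. In RefSeq annotation of GRCm38.p6, 7 of the 10 genes have an H2B gene on the opposite strand whose start lies within 1000 bases upstream, at distances of 164 to 268 bases. The array detected the H2B neighbour of 4 of them, and the remaining neighbours had no probe under their gene symbols. Hist1h2bf, the neighbour of Hist1h2ad at 174 bases, read 1564 in parental, 896 in Rb-deleted, 1967 in WT Rb-HA and 2489 in ΔCdk Rb-HA MEFs. Its log2 ratios of -0.77 (0.06), 0.40 (0.04) and 0.75 (0.04) stood beside 1.20, 0.84 and 0.97 for Hist1h2ad. Hist1h2bj, the neighbour of Hist1h2ag at 249 bases, read 1231, 721, 1490.4 and 1848, with log2 ratios of -0.73 (0.07), 0.34 (0.07) and 0.68 (0.05). Hist1h2bk, the neighbour of Hist1h2ah at 178 bases, read 588, 343, 746 and 924. Hist1h2bn, the neighbour of Hist1h2ak at 164 bases, read 560.2, 376, 747 and 969. In all 4 pairs the H2A gene lay above and the H2B gene below parental in Rb-deleted MEFs, and both lay above parental in the Rb-HA cultures. The H2A genes had been chosen by the Rb-deleted contrast. Hist1h2ad, Hist1h2ah and Hist1h2ak also belong to the group linked by 20 bases. Their probes may read other H2A genes, so a split within those pairs is not shown gene by gene.

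**Figure D5:**
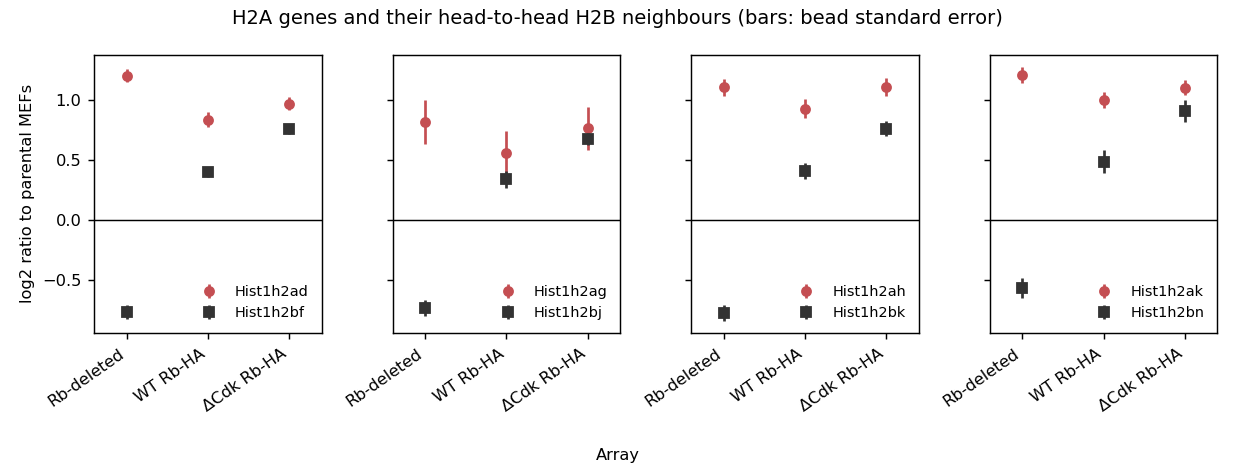
Log2 ratio to parental MEFs of 4 H2A genes (circles) and the H2B gene that starts head-to-head with each (squares) on the 3 Cre-treated arrays, with the bead standard error as bars. On the Rb-deleted array each H2B gene lies between -0.77 and -0.57 and each H2A gene above 0, and on the other 2 arrays both genes of every pair lie above 0.

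Probes of H2B genes also overlap among themselves, since 6 of the 14 detected H2B probes shared at least 20 bases with a probe of another H2B gene. The longest run that any of them shared with a probe of the 10 H2A genes was 9 bases. Signs in Rb-deleted MEFs were the same for H2B probes with shorter runs, such as Hist1h2bm at position 225, at -0.88, and Hist1h2bj. Values were smaller for Hist1h2bg at -0.26 and Hist2h2be at -0.23, whose longest run with another H2B gene was 7 bases.

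Promoter sequence of 3 of the genes is shown because their values differed, with Hist1h2ad high, Hist1h2ag high but dim, and Hist1h2ab not higher in Rb-deleted MEFs. Each line gives the 120 bases before the annotated start from RefSeq (GRCm38.p6), matched by Entrez gene number, as were all 10 genes. Capitals mark the CCAAT box, the word TATAAA and the E2F-type words, each on either strand. The E2F-type words searched were TTTCCCGC, then TTTGGCGC, then TTTGCCGC, and last TTTCGCGC.

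Hist1h2ad, chr13:23574261-23574380, plus strand: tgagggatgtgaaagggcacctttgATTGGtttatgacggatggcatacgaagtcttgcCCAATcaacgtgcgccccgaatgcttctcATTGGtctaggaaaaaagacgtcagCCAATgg
Hist1h2ag, chr13:22042950-22043069, minus strand: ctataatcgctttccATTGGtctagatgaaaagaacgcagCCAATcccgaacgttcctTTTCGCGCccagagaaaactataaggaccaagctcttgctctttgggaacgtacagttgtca
Hist1h2ab, chr13:23750968-23751087, plus strand: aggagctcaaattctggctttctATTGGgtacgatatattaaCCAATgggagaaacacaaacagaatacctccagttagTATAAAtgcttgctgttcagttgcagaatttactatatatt

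Over the window from 250 bases before to 50 after the start, all 10 genes held CCAAT, the box bound by NF-Y, as did 37.4% of 32851 promoters in the table. TATAAA was found in 6 of 10 and in 13.6% of all promoters. It lay before the start in Hist1h2ab (-41), Hist1h2an (-33) and Hist2h2ac (-42). In Hist1h2ad (30), Hist1h2ah (15) and Hist1h2ak (21) it lay after the start. ATTTGCAT, the octamer bound by Oct-1 that is better known from H2B promoters, was found in 3 of 10 and in 1.74% of all. At least 1 of the E2F-type words was found in 5 of 10 and in 2.26% of all. Of these TTTCGCGC was in 5 of 10 and in 0.323% of all, at -62 in Hist1h2ag, 11 in Hist1h2ad, -48 in Hist1h2af, -4 in Hist1h2ah and -52 in Hist1h2an, counted from the start. TTTGCCGC was in 2 of 10 and in 0.441% of all. TTTCCCGC and TTTGGCGC were in 0 of 10 and in only 1.07% and 0.514% of all, so their absence here is not particular to the 10 genes. Hist1h2ab, Hist1h2ai, Hist1h2ak, Hist1h2ao and Hist2h2ac held none of these words in this window.

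Genes that act on histone mRNA showed small values. Of 17 detected genes for histone mRNA transcription and processing, 0 were past 1.6-fold in Rb-deleted MEFs, with a median log2 ratio of 0.12. Npat, the cyclin E-Cdk2 substrate that activates histone genes, was at 0.12, and Mif4gd was highest at 0.45. Slbp, which binds the histone stem loop, was not detected on any array, and nor was Casp8ap2. Among the 10 chaperones and importers of histones, all detected on all 4 arrays, Nasp was the only gene past 1.6-fold, at 1.29, 0.77 and 1.01 on the 3 arrays, and the median in Rb-deleted MEFs was 0.24. Npm1 was the lowest there at -0.33.

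Targets of E2F at the G1/S transition, which code mostly for replication proteins and also for cell cycle regulators and repair proteins, were higher on the same arrays. Of the 32 detected genes 28 were past 1.6-fold after Rb deletion, 11 in WT Rb-HA and 24 in ΔCdk Rb-HA MEFs, with medians of 1.13, 0.53 and 0.96. Ung, a uracil-DNA glycosylase, was highest in Rb-deleted MEFs at 2.46, and Pcna lowest at 0.30. In WT Rb-HA relative to Rb-deleted MEFs the median of these genes was -0.77 and that of the 10 H2A genes -0.22. What part a shift in cell cycle phase had in the H2A values was not tested.

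By the rule of nearest values, the 5 genes outside the 10 whose 3 log2 ratios to parental lay closest to the H2A medians were 1110001A07Rik, Pygo1, 2900060B14Rik, Apitd1 and Nt5dc2. Distances over the 3 ratios were between 0.07 and 0.11, among 10828 genes detected on all 4 arrays. Apitd1, a centromere and DNA repair protein, had log2 ratios of 0.95, 0.61 and 0.78. Pygo1, a coactivator in Wnt signalling, had 0.94, 0.77 and 0.72. None of the 5 was a histone gene.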

How the data were processed

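Total RNA was labelled as biotinylated cRNA with an Ambion MessageAmp kit and hybridised to Illumina MouseWG-6 v2.0 BeadChips, 1 array for each of 4 conditions named by the labels of the samples. The authors deposited the mean intensity of every probe over its beads, on a linear scale and without normalization between arrays. The deposited table also holds, for each probe and array, a detection p-value, a count of beads and their standard error, and all of these columns were used. Of 40 symbols that had been turned into dates, 34 were restored from Entrez gene numbers. How the authors normalized the arrays is not given in the sources used here, and genome coordinates of probes are not printed because their build is not named.

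Background was corrected from the detection p-values by normexp with an offset of 16, and the 4 arrays were quantile normalized on the log2 scale with limma 3.58.1 in R 4.3.3. The offset draws the ratios of dim probes toward 0. A gene entered the analysis when any of its probes was detected (p below 0.01) on 1 or more arrays, and the probe with the highest mean signal stood for its gene, while every probe of the 10 H2A genes is given. A gene counted as past 1.6-fold at a log2 ratio of 0.68, the fold filter that the study names. With 1 array per condition no test was run. Bead standard errors were carried to the normalized scale and combined over both arrays of a ratio. Where only 1 array of a pair detected a probe, no fold is stated as a bound, because it varied with the background correction. The number of arrays limits the precision. The calculation was also tested on data with known changes.

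Shared runs between probes and exact motif matches were counted in Python 3.11.15 with numpy 2.4.6 and pandas 2.3.3, and figures were drawn with matplotlib 3.10.9. Promoter sequences are those of RefSeq, GRCm38.p6. Every gene and probe of the 10 is named, the gene lists (other, replacement and cluster histones, histone mRNA processing, chaperones, G1/S targets and markers of fibroblasts, leukocytes, epithelium and endothelium) are given by counts and medians with their highest or lowest genes, and the 5 nearest genes by Euclidean distance. The 10 genes and the lists were chosen with earlier results of these data known. Genes named as H2B neighbours, EG667728 and further examples of a list were picked after their values had been seen. Alternatives changed the background correction, the offset, the normalization, the detection filter, the choice of probe, the fold and the counting of linked genes. Protein sequences were not used here.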

Additional observations from a re-analysis of the deposited data

How the results depend on the processing

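The median log2 ratio of the 10 H2A genes in Rb-deleted MEFs was 0.95 and lay between 0.75 and 1.07 under the alternatives run, always above 0. Because the genes were chosen by this contrast, its sign under the alternatives is not separate support. The range shows only how far the median depended on the processing and the counting. The median was 1.07 with genes detected on all 4 arrays, 1.02 with the mean over detected probes and 0.82 with 1 gene per group sharing 40 bases. Of the alternatives chosen after seeing the data, it was 0.75 with 1 gene per group sharing 20 bases, 1.07 with every detected probe counted and 1.07 with the dimmest detected probe per gene. With 20-base groups the other medians became 0.56 for WT Rb-HA to parental, -0.12 for WT Rb-HA to Rb-deleted, -0.026 for ΔCdk Rb-HA to Rb-deleted (-0.055 with 40-base groups) and 0.20 for ΔCdk Rb-HA to WT Rb-HA MEFs. Of the 20-base medians, 0.75, -0.12 and -0.026 were the values of Hist1h2af at position 246. That probe is not among the probes that share 20 bases, so these medians do not represent the linked probes. The median for ΔCdk Rb-HA to parental MEFs was 0.86 with every detected probe and 0.87 with the dimmest probe, which gave 0.77 for WT Rb-HA to parental MEFs. With the dimmest probe the log2 ratio of Hist2h2ac in Rb-deleted MEFs reversed to -0.15.

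At 2-fold the number of the 10 genes higher than parental was 5 in Rb-deleted, 1 in WT Rb-HA and 2 in ΔCdk Rb-HA MEFs, and at 1.5-fold it was 8 in WT Rb-HA MEFs. The share of all genes at these folds is not set beside them, so they show only how the counts move with the threshold. The 1 gene past 1.6-fold from Rb-deleted to ΔCdk Rb-HA MEFs, and from WT Rb-HA to ΔCdk Rb-HA MEFs, was Hist1h2ab, and both counts were 0 without background correction, with an offset of 50 and with genes detected on all 4 arrays; the latter count was 0 at 2-fold as well. Counts over all genes moved more. Those higher than parental were 270 in Rb-deleted MEFs (67 to 444 over the alternatives), 112 in WT Rb-HA (18 to 232) and 325 in ΔCdk Rb-HA MEFs (78 to 502). Those lower than parental in Rb-deleted MEFs were 376 (158 to 540). In WT Rb-HA relative to Rb-deleted MEFs 68 were higher (24 to 115) and 61 lower (11 to 118), and from Rb-deleted to ΔCdk Rb-HA MEFs 292 were higher (100 to 430) and 246 lower (68 to 405). From WT Rb-HA to ΔCdk Rb-HA MEFs 106 were higher (23 to 199). A higher or lower threshold changes such counts by construction, and the cause of the other changes was not tested.

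No paired analysis was possible because each condition has 1 array, and leaving out an array was not run for the same reason. Signal over background limits Hist1h2ab and Hist1h2ag, the dimmest of the 10 genes.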
